A study of Mus musculus with 10 samples.

Results

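The Notch receptors, their ligands and the Hes and Hey effector genes were followed in cultured neural tube explants of mouse embryos. The 10 genes were taken by name: the receptor genes Notch1, Notch2 and Notch3, the ligand genes Dll1, Dll3, Jag1 and Jag2, and the effector genes Hes1, Hes5 and Hey1. They are 10 of the 42465 gene models in the deposited table, and all 10 passed the filter on low values. The neural tube is the embryonic precursor of brain and spinal cord, and neural crest cells, the source of pigment cells and peripheral glia, migrate out of it. Explants were taken at embryonic day 9.5 from wild type (WT) or Ednrb-/- embryos, which lack the endothelin receptor type B, with 5 biological replicates of each genotype. Both groups were cultured for 4 days in DMEM with 10% fetal bovine serum, L-glutamine, gentamicin and 20 nM EDN3, the ligand of that receptor. The labels give neither the strain nor how the Ednrb allele was made, and do not say whether a replicate was 1 embryo or a pool.

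Notch receptors are membrane proteins that are cut when a ligand on a neighbouring cell binds them. The freed intracellular part enters the nucleus, joins the DNA-binding protein RBPJ and switches on target genes, among them the Hes and Hey genes, which encode repressors of the bHLH class. In the neural tube, Hes1 and Hes5 hold cells in a progenitor state by repressing proneural genes, while cells that become neurons raise Delta ligands and so signal to their neighbours. Notch signalling also acts in melanoblasts, where it is needed for the upkeep of the lineage, and in vascular smooth muscle, for which Jag1, Notch2 and Notch3 are well known.

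In the Ednrb-/- explants the receptor gene Notch2 and the ligand gene Jag1 were lower and the effector gene Hey1 was higher. Notch2 fell 1.76-fold and Jag1 1.99-fold, and Hey1 rose 1.84-fold, each as the antilog of the limma difference of log2(FPKM + 0.5). FPKM is the number of read pairs per kilobase of gene model, scaled to the size of the library. Levels can be compared between genes only as far as the lengths of the gene models hold. The other 7 genes did not pass an adjusted p of 0.05 (limma, Benjamini-Hochberg over all 15156 genes tested). Thus 1 of 10 genes rose, where 6.53% of all genes tested did, and 2 of 10 fell, where 13.0% of all genes tested did. In either direction 3 of 10 changed, where 19.5% of all genes tested did, and so few genes do not separate these shares. The median log2 fold change of the 10 genes was -0.05, beside 0.0048 over all genes tested.

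**Figure D1:**
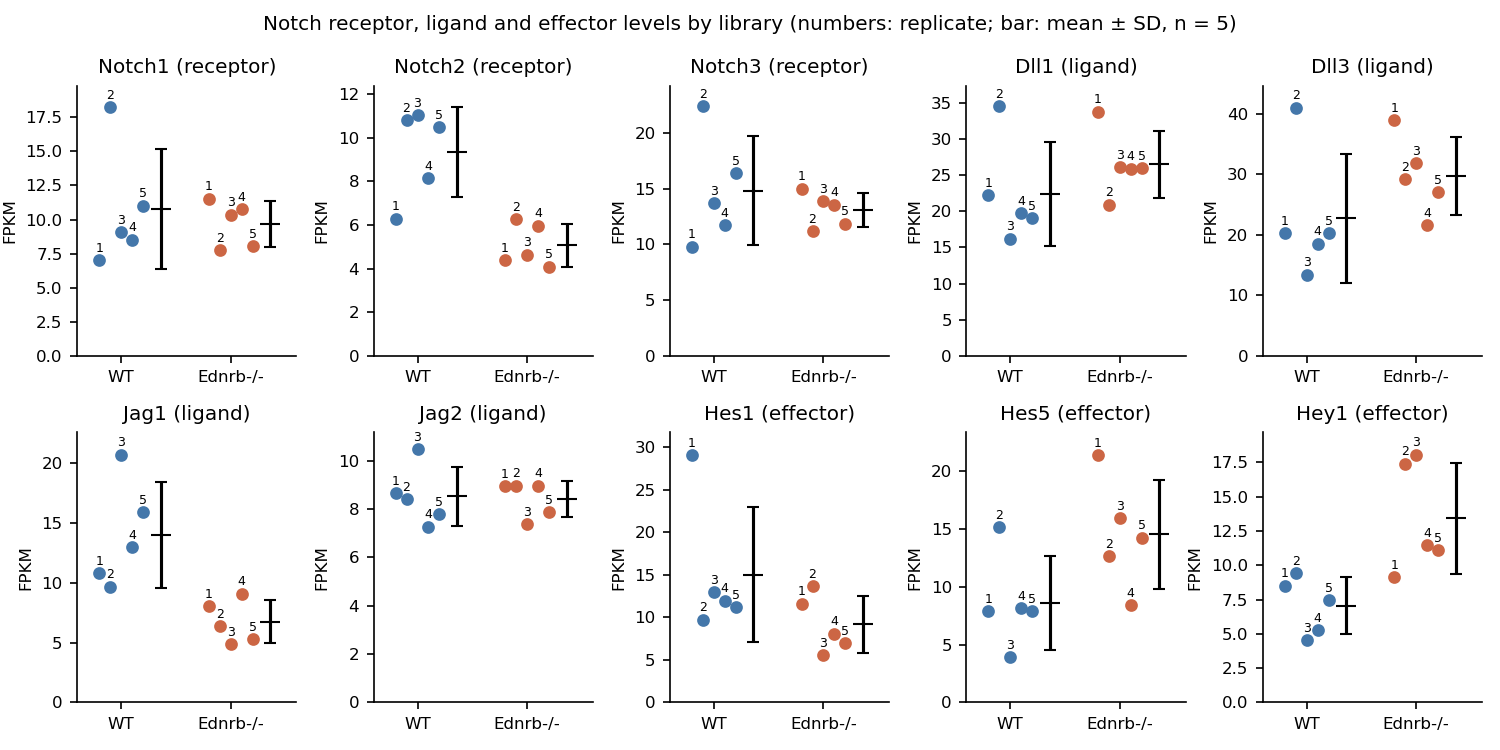
FPKM (vertical axis, from 0) of each gene in each library, WT in blue and Ednrb-/- in orange, with the replicate number above each point and the mean ± SD (n = 5) to the right of each group. The genotypes do not overlap for Notch2 and Jag1, and WT replicate 2 is the highest of the 10 libraries for Notch1, Notch3, Dll1 and Dll3.

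Sequence upstream of the start site was available for 8 of the 10 genes, all but Hes1 and Hey1, in RefSeq's promoter table (build GRCm38.p6). The 250 bases before the start were searched on both strands for the RBPJ core TGGGAA, the N box CACNAG, to which Hes proteins can bind, and the E box CACGTG. The Hes5 window is shown because it alone among the 8 genes held the RBPJ core, and it held the core on each strand. The Notch2 and Jag1 windows are shown because these are the receptor and the ligand that fell. Capitals mark matches to the RBPJ core, read as TGGGAA on the gene's strand or as TTCCCA for the opposite strand.
Hes5 (chr4:154960673-154960922, plus strand): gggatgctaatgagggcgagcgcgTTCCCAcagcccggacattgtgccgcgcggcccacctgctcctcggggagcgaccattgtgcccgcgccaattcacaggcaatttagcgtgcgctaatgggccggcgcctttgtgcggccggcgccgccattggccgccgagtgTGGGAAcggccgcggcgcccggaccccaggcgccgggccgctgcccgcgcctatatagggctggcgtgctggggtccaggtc
Notch2 (chr3:98013288-98013537, plus strand): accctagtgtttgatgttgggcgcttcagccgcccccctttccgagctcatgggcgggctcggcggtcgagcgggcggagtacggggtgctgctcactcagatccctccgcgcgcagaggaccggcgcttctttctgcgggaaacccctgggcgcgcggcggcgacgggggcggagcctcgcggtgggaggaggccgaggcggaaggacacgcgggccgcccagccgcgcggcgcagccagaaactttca
Jag1 (chr2:137116521-137116770, minus strand): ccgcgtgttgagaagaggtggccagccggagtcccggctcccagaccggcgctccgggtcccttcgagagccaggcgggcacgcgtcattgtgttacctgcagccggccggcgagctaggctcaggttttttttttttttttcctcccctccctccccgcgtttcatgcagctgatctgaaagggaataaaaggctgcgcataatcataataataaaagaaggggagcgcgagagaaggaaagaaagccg

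The Hes5 matches lie 226 to 221 bases before the start, as TTCCCA, and 82 to 77 bases before it, as TGGGAA. Of all 32851 promoter windows of this length, 21.6% held the core on either strand and 1.28% held it on both strands. N box matches were found in the windows of Notch1 (1), Notch2 (1) and Notch3 (2), where 36.7% of all windows held at least 1. The E box was found in none of the 8 genes' windows and in 6.02% of all windows. These are matches of letters and no measure of binding.

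WT replicate 2 stood apart from the other libraries in 4 Hox genes. Its Hoxa13, Hoxb13, Hoxc13 and Hoxd13 levels, genes of the tail end of the body axis, were 4.32, 17.5, 13.6 and 4.71 FPKM, and the highest value of any of them in another library was 1.32 FPKM. It was the highest of the 10 libraries for 4 of the 10 Notch genes. Calls on the Notch genes and the pathway genes that change without it are given in both ways. Ednrb itself, the targeted gene, ran from 43.8 to 60.7 FPKM in WT and from 2.34 to 11.7 FPKM in the Ednrb-/- libraries. Reads worked back from the values numbered between 13022266 and 19532570 per library. Cell type markers showed neural tissue: Sox2, a progenitor factor, stood at 87.9 ± 25.4 FPKM in WT and Tubb3, a neuronal tubulin, at 664 ± 105 FPKM (SD, n = 5). Smooth muscle genes were high in WT too, with Acta2 at 784 ± 442 FPKM (SD, n = 5).

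Among the receptors, Notch2 was the one that fell. In the file it has the identifier MGP_C57BL6NJ_G0028065 with chromosome 3, start 102666486, end 102809405 and the plus strand, and the identifiers are those of the C57BL/6NJ assembly. Its level was 6.29, 10.8, 11.0, 8.14 and 10.5 FPKM in WT replicates 1 to 5 and 4.38, 6.27, 4.64, 5.96 and 4.09 FPKM in the Ednrb-/- replicates 1 to 5. All 5 Ednrb-/- libraries lay below all 5 WT libraries, which held for 8.44% of all genes tested, but WT replicate 1 was only just above Ednrb-/- replicate 2. Mean levels came to 9.35 ± 2.06 and 5.07 ± 0.983 FPKM (SD, n = 5 each). The log2 fold change was -0.81 with a standard error of 0.17 (limma, adjusted p = 0.00860; two-sided exact permutation p = 0.00794, which is the lowest possible with 5 libraries against 5).

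Notch1 and Notch3 did not pass. Notch1, the receptor best known for keeping neural progenitors undifferentiated, had 7.02, 18.3, 9.09, 8.52 and 11.0 FPKM in WT and 11.5, 7.75, 10.3, 10.8 and 8.05 FPKM in the Ednrb-/- replicates 1 to 5. Apart from WT replicate 2 the libraries of both genotypes covered the same range. The log2 fold change was -0.09 with a 95% interval from -0.57 to 0.40 (limma, adjusted p = 0.821). That interval leaves room for changes between 0.672-fold and 1.32-fold. Notch3, a receptor of mural cells that neural progenitors also express, had 9.81, 22.4, 13.7, 11.8 and 16.4 FPKM in WT and 15.0, 11.2, 13.9, 13.6 and 11.9 FPKM in the Ednrb-/- replicates. Here too the Ednrb-/- values lay inside the WT range, with a log2 fold change of -0.12 and an interval from -0.54 to 0.29 (limma, adjusted p = 0.696). Without WT replicate 2 the differences of Notch1 and Notch3 turned to 0.11 and 0.036 (limma, adjusted p = 0.654 and 0.891).

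Notch3 was the most abundant receptor per length of gene model in each of the 10 libraries. That order depends on the model lengths, 14232 bases for Notch1 and 8044 bases for Notch3. In reads over all libraries Notch1 was ahead, with 23626 against 18155. Notch3 made up 42.2 ± 1.30% of the summed FPKM of the 3 receptors in WT and 47.0 ± 2.30% in Ednrb-/- libraries. The share of Notch2 was 27.4 ± 4.20% and 18.4 ± 4.14%, and that of Notch1 30.4 ± 3.16% and 34.6 ± 2.54% (SD, n = 5 each). In WT the share of Notch2 ran from 21.0% in replicate 2 to 32.6% in replicate 3, and in Ednrb-/- from 14.2% in replicate 1 to 24.9% in replicate 2, so the shares overlapped although the levels did not.

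**Figure D2:**
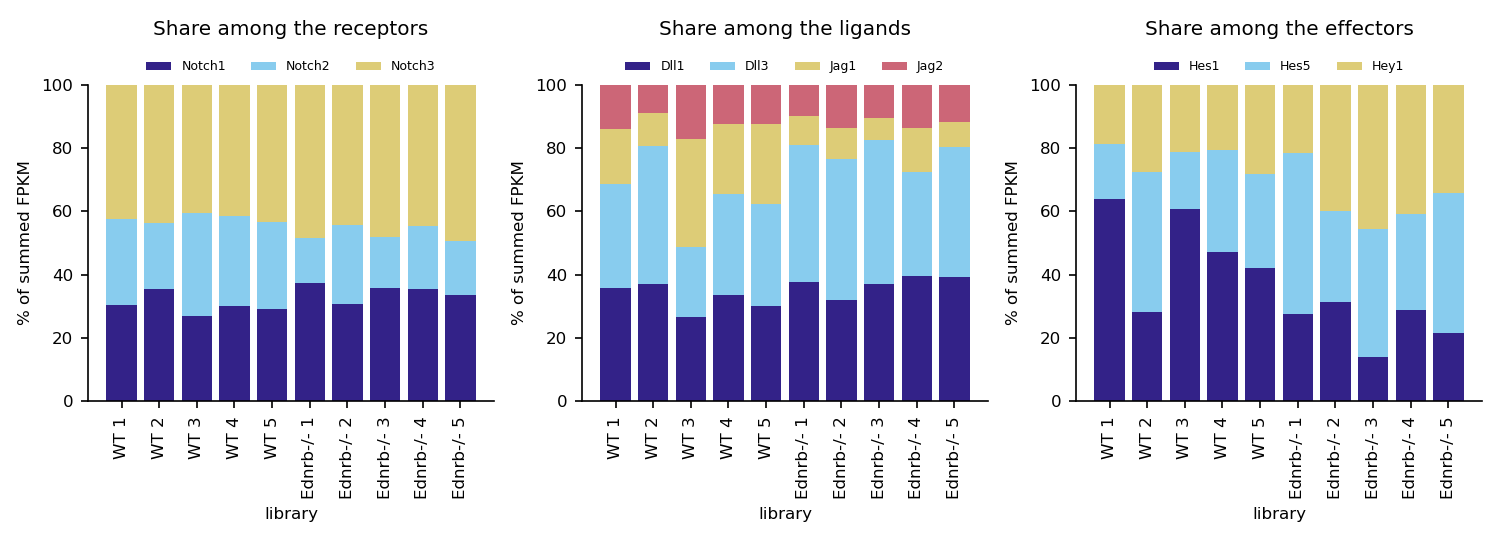
Share of each gene (vertical axis, percent of the summed FPKM) among the 3 receptors, the 4 ligands and the 3 effectors in each library (horizontal axis). Jag1 takes 10.3% to 34.0% of the ligands in WT and 6.94% to 13.9% in Ednrb-/- libraries, and Hes1 takes 28.4% to 63.9% and 14.0% to 31.3% of the effectors.

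Among the ligands, Jag1 fell and the Delta genes were at higher means. Jag1, a ligand of the Serrate class that arterial smooth muscle needs, has the identifier MGP_C57BL6NJ_G0026983 (chromosome 2, start 145099632, end 145140130, minus strand). In order of replicate number the WT libraries held 10.8, 9.67, 20.7, 13.0 and 15.9 FPKM, and those of Ednrb-/- held 8.07, 6.35, 4.87, 9.08 and 5.28 FPKM. The groups did not overlap, with WT replicate 2 lowest in its group and closest to Ednrb-/- replicate 4. WT and Ednrb-/- averaged 14.0 ± 4.43 and 6.73 ± 1.80 FPKM (SD, n = 5 each), and the log2 fold change was -0.99 with a standard error of 0.22 (limma, adjusted p = 0.0101; exact two-sided permutation p = 0.00794).

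Markers of other cell types also differed between the genotypes. All 7 tested genes of the smooth muscle and mural list were lower in Ednrb-/- (limma, median log2 fold change -2.58), and the summed level of its 8 genes ran from 318 to 2401 FPKM in WT and from 42.5 to 271 FPKM in the Ednrb-/- libraries. WT replicate 3, the highest for this list, was also the highest for Jag1 and Notch2. WT replicate 2, the lowest WT library for the list, was the lowest WT library for Jag1 but the second highest for Notch2. Within Ednrb-/-, replicate 4 was the highest for the summed list and for Jag1, while replicate 2, below replicates 4 and 1 for the list, was the highest for Notch2. By mean log2 level the list was highest in Ednrb-/- replicate 1 (3.13, against 3.01 in replicate 4). The 6 tested melanocyte genes were lower too, with a summed level of the 8 listed genes of 66.0 to 208 FPKM in WT and 4.78 to 17.1 FPKM in the Ednrb-/- libraries. Within WT the melanocyte sum was highest in replicate 1, the lowest WT library for Notch2. WT replicate 3, the highest for Jag1 and Notch2, held 77.9 FPKM. Of 8 endothelial markers 7 stayed under 1 FPKM in all 10 libraries, and the list summed to between 1.35 and 10.0 FPKM in WT and between 0.458 and 1.57 FPKM in the Ednrb-/- libraries. Of 7 tested genes of the glial and Schwann cell precursor list, 6 fell and Fabp7 rose. The part of these cell types in the Jag1 and Notch2 differences was not tested, and in bulk RNA fewer cells of a type and less RNA per cell cannot be told apart.

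Jag2, the other Serrate-class ligand, had the smallest SD relative to its mean of the 10 genes in both genotypes. It had 8.67, 8.42, 10.5, 7.27 and 7.80 FPKM in WT and 8.95, 8.97, 7.38, 8.97 and 7.86 FPKM in the Ednrb-/- replicates 1 to 5. Both genotypes covered the same narrow range, and the log2 fold change was -0.01 with a 95% interval from -0.25 to 0.23 (limma, adjusted p = 0.964). The interval leaves room for changes between 0.839-fold and 1.18-fold.

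Dll1, the Delta ligand of newborn neurons, and Dll3, a family member that acts inside the cell and does not activate Notch in neighbours, were the 2 most abundant genes of the set in both genotypes. Dll3 had 20.3, 41.0, 13.4, 18.6 and 20.3 FPKM in WT and 38.9, 29.2, 31.8, 21.6 and 27.1 FPKM in the Ednrb-/- replicates 1 to 5. Each Ednrb-/- library lay above 4 of the 5 WT libraries, and WT replicate 2 above all of them. Dll1 had 22.2, 34.6, 16.2, 19.7 and 19.0 FPKM in WT and 33.8, 20.9, 26.1, 25.9 and 25.9 FPKM in the Ednrb-/- replicates. Here Ednrb-/- replicate 2 lay below 2 WT libraries, replicates 1 and 2. The log2 fold changes were 0.45 for Dll3 and 0.27 for Dll1, with 95% intervals from -0.10 to 1.01 and from -0.14 to 0.68 (limma, adjusted p = 0.239 and 0.338).

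Without WT replicate 2 both Delta genes passed. The log2 fold change of Dll3 was then 0.69 (limma, adjusted p = 0.0174) and that of Dll1 0.44 (limma, adjusted p = 0.0407). The WT means were 18.2 ± 3.27 FPKM for Dll3 and 19.3 ± 2.47 FPKM for Dll1 without that library (SD, n = 4), against 29.7 ± 6.39 and 26.5 ± 4.62 FPKM in the Ednrb-/- libraries (SD, n = 5). For Dll3 the genotypes then did not overlap. WT replicate 2 held the highest value of both genes, so leaving it out raises their differences in any case. Leaving out any other single library, either gene stayed short of the threshold, with adjusted p values up to 0.468 for Dll3 and 0.596 for Dll1.

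**Figure D3:**
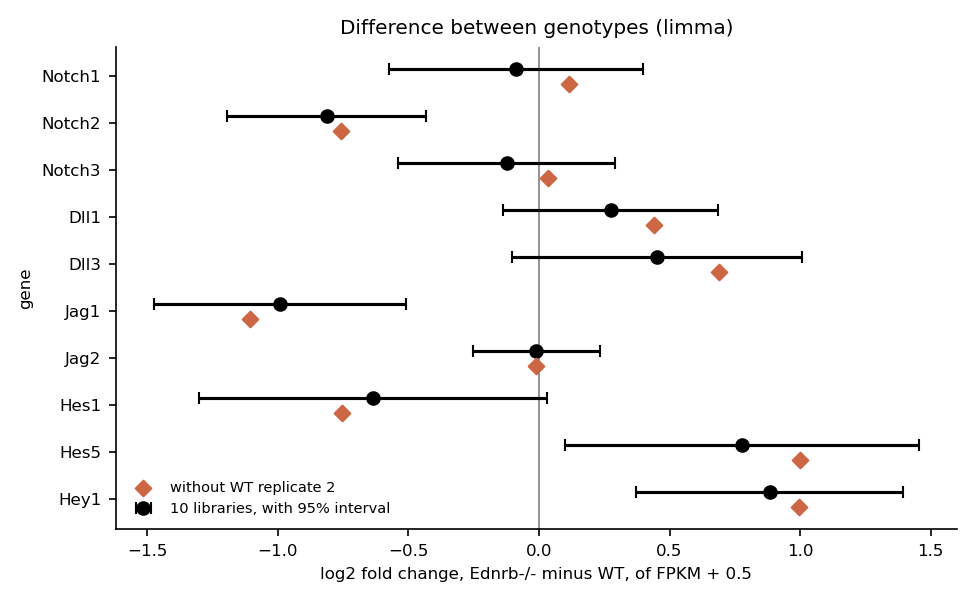
Log2 fold change of each gene (horizontal axis, Ednrb-/- minus WT, of FPKM + 0.5), with its 95% interval by limma from all 10 libraries (black) and the value without WT replicate 2 (orange diamonds). The intervals, which are not adjusted over genes, lie wholly below 0 for Notch2 and Jag1 and wholly above 0 for Hey1 and Hes5, although Hes5 did not pass the adjusted test. Dll1, Dll3 and Hes5 move to 0.44, 0.69 and 1.00 without WT replicate 2.

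Together the Delta genes made up 65.2 ± 11.5% of the summed ligand FPKM in WT and 78.5 ± 4.06% in Ednrb-/- libraries (SD, n = 5 each). The sum itself was similar, at 67.6 ± 14.7 and 71.4 ± 10.5 FPKM. Jag1 took 21.8 ± 8.84% of it in WT and 9.5 ± 2.65% in Ednrb-/-, and Jag2 13.0 ± 2.99% and 12.0 ± 1.75%. Read as a ratio, Dll1 stood at 1.83 ± 1.08 times the level of Jag1 in WT and at 4.12 ± 1.06 times in Ednrb-/- libraries. WT replicate 3, where Dll1 was at 0.783 times Jag1, was the only library with more Jag1 than Dll1. WT replicate 2, at 3.58 times, lay inside the Ednrb-/- range.

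The effectors split, with Hey1 higher in the Ednrb-/- explants, Hes5 at a higher mean and Hes1 at a lower one. Hey1, a repressor that marks Notch-active cells in several tissues, has the identifier MGP_C57BL6NJ_G0027470 (chromosome 3, start 6096585, end 6100482, minus strand). It had 8.51, 9.44, 4.54, 5.28 and 7.47 FPKM in WT and 9.14, 17.4, 18.1, 11.4 and 11.1 FPKM in the Ednrb-/- replicates 1 to 5. Of the Ednrb-/- libraries 4 lay above all WT libraries, and replicate 1 lay just below WT replicate 2. Averages were 7.05 ± 2.09 and 13.4 ± 4.03 FPKM (SD, n = 5 each), and the log2 fold change was 0.88 with a standard error of 0.23 (limma, adjusted p = 0.0221; exact two-sided permutation p = 0.0159).

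The call on Hey1 was lost in 4 of the 10 fits without 1 library. Leaving out WT replicate 3 or 4 gave an adjusted p of 0.0547 or 0.0590 (limma), and leaving out Ednrb-/- replicate 2 or 3 gave 0.0518 or 0.0553, while the log2 fold change stayed between 0.75 and 1.00 over all alternatives run.

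Hes5, a Notch target of neural progenitors, has the identifier MGP_C57BL6NJ_G0029633 (chromosome 4, start 164942249, end 164943697, plus strand). It had 7.88, 15.2, 3.92, 8.16 and 7.88 FPKM in WT and 21.3, 12.6, 15.9, 8.43 and 14.2 FPKM in the Ednrb-/- replicates 1 to 5. All Ednrb-/- libraries lay above 4 of the 5 WT libraries, and WT replicate 2 lay among the Ednrb-/- values. The log2 fold change was 0.78 with a standard error of 0.31 (limma, adjusted p = 0.103; exact two-sided permutation p = 0.0635). It became 1.00 without WT replicate 2, the highest WT library (limma, adjusted p = 0.0241), when the genotypes no longer overlapped. Without Ednrb-/- replicate 4, the lowest Ednrb-/- library, it was 0.95 (limma, adjusted p = 0.0485). Hes5 is the thinnest measured of the 10 genes, with 84 to 576 reads per library.

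Hes1, a Notch target that other pathways also induce, went the other way in its mean. It has the identifier MGP_C57BL6NJ_G0023124 (chromosome 16, start 28531575, end 28534987, plus strand). In order of replicate number the WT libraries had 29.0, 9.74, 13.0, 12.0 and 11.2 FPKM and those of Ednrb-/- had 11.6, 13.7, 5.52, 8.08 and 6.93 FPKM. WT replicate 1 lay far above all other libraries, and Ednrb-/- replicates 3, 4 and 5 lay below all WT libraries. The log2 fold change was -0.64 with a 95% interval from -1.30 to 0.03 (limma, adjusted p = 0.171; exact two-sided permutation p = 0.111). Without WT replicate 1 it was -0.37 (limma, adjusted p = 0.293).

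Hes1 was the most abundant of the 3 effectors in 4 of the 5 WT libraries, and in 1 of the 5 Ednrb-/- libraries it exceeded Hes5. Relative to Hes1, Hes5 stood at 0.271, 1.56, 0.302, 0.682 and 0.704 in WT replicates 1 to 5 and at 1.84, 0.922, 2.89, 1.04 and 2.05 in Ednrb-/- replicates. Apart from WT replicate 2, every WT ratio lay below every Ednrb-/- ratio. Hey1 took 23.3 ± 4.26% of the summed effector FPKM in WT and 36.5 ± 9.19% in Ednrb-/- (SD, n = 5 each). The sum of the 3 effectors was 30.6 ± 9.5 FPKM in WT and 37.1 ± 6.73 FPKM in the Ednrb-/- libraries.

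Neural marker levels stood beside these values as follows. Of 7 tested neuronal markers, 6 rose and none fell, and the summed level of the list ran from 857 to 1149 FPKM in WT and from 1384 to 1609 FPKM in the Ednrb-/- libraries. The 8 neural progenitor markers summed to between 835 and 945 FPKM in WT and between 792 and 937 FPKM in the Ednrb-/- libraries, with 1 gene higher and 2 lower. The largest genes of that sum went opposite ways, Vim from a mean of 427 to 211 FPKM and Fabp7 from 268 to 427 FPKM. Nes also fell. Sox1, Sox2, Pax6 and Prom1 had higher means without passing, and Sox3 a lower one. WT replicate 3 was the lowest WT library for both lists and the lowest of all 10 libraries for Dll1, Dll3, Hes5 and Hey1. Of the tailbud and presomitic mesoderm list, where Dll1, Dll3 and Hes7 are active in the embryo, Msgn1 was listed at 0 in all 10 libraries and Tbx6 stayed under 1 FPKM, while 2 of the 4 tested genes fell, T and Wnt3a. T ran from 3.17 to 29.1 FPKM in WT and from 0 to 7.56 FPKM in the Ednrb-/- libraries. WT replicate 2 held 10.0 FPKM of T, and the fall of T passed at an adjusted p of 0.0321 (limma). Wnt3a, also a gene of the dorsal neural tube, stood at 3.61 ± 1.75 and 1.34 ± 0.692 FPKM without overlap (SD, n = 5 each; limma, adjusted p = 0.0325). The part of these cell types in the differences was not tested.

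By mean level the order of the 10 genes in WT was Dll3, Dll1, Hes1, Notch3, Jag1, Notch1, Notch2, Hes5, Jag2 and Hey1, from 22.7 down to 7.05 FPKM. Each gene's range over the 5 WT libraries overlapped that of the next gene in this order, so no neighbours were separated beyond their spread. In Ednrb-/- the order was Dll3, Dll1, Hes5, Hey1, Notch3, Notch1, Hes1, Jag2, Jag1 and Notch2, from 29.7 down to 5.07 FPKM. Neighbours again overlapped in their ranges over libraries. Within each library, Dll1 exceeded Hes5, Notch3 exceeded Notch1 and Jag1 exceeded Notch2 in all 5 Ednrb-/- libraries.

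The spread among libraries also differed. In WT the SD was between 14.3% of the mean for Jag2 and 53.0% for Hes1, and in Ednrb-/- between 8.96% for Jag2 and 36.9% for Hes1. The extremes lay mostly in WT. WT replicate 3 held the highest value of 3 genes, Notch2, Jag1 and Jag2, and the lowest of 4.

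**Figure D4:**
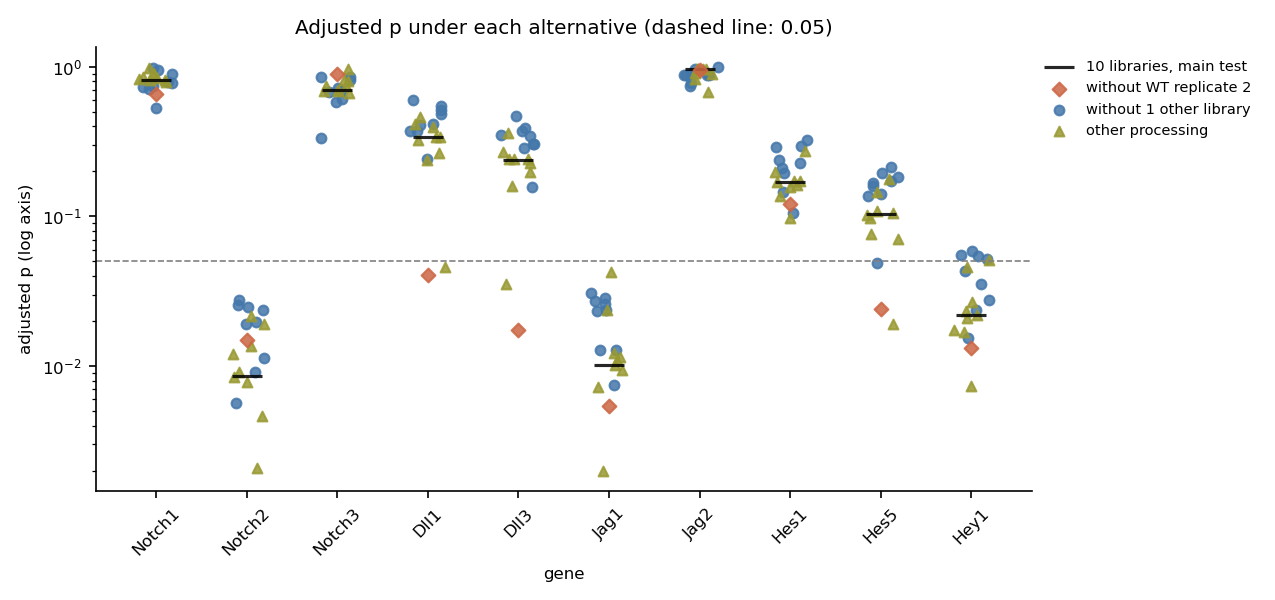
Adjusted p (vertical log axis) of each gene with all 10 libraries and the settings of the text (black bar), without WT replicate 2 (orange diamond), without each other library in turn (blue circles) and under other processing (olive triangles), with the threshold of 0.05 dashed. Notch2 and Jag1 stay below the line under all 20 settings, Hey1 under 15 of them, Hes5 under 3, and Dll1 and Dll3 under 2 each.

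Among other genes of the pathway few changed. Of 63 listed genes 61 had a row in the table and 56 passed the filter, of which 2 rose and 3 fell, beside 6.53% and 13.0% of all genes tested. Their median log2 fold change was 0.06. Without WT replicate 2, 5 rose and 4 fell, as Dtx4, Snw1 and Tle3 passed upward and Adam10 downward beside the same 5 genes. In that fit 1151 of all 14957 genes tested rose and 2089 fell. WT replicate 2 was the highest WT library for Dtx4, Snw1 and Tle3 and the lowest for Adam10. Leaving it out therefore enlarges their differences in any case. Rbpj and Maml2 are not analysed here, and Aph1c, Neurl1b, Hes2, Hes3 and Hes7 lay below the filter.

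Of the other receptors and ligands 1 of 5 rose, where 6.53% of all genes tested did. Dner, a membrane protein of neurons that has been described as a noncanonical Notch ligand, went from 44.6 ± 6.98 to 59.8 ± 7.74 FPKM (SD, n = 5 each; limma, log2 fold change 0.42, adjusted p = 0.0327). Its call was lost in 7 of the 10 fits without 1 library, with adjusted p values between 0.0556 and 0.0874, and with no filter on low genes (0.0580). Notch4 and Dll4, best known from endothelium, stood at 1.54 ± 0.162 and 1.07 ± 0.271 FPKM in WT and at 1.91 ± 0.346 and 1.38 ± 0.355 FPKM in the Ednrb-/- libraries (limma, adjusted p = 0.304 and 0.371). None of the 5 genes for receptor glycosylation passed. The lowest p among them was that of Pofut1, which adds the O-fucose that ligands need, at 4.75 ± 0.686 and 3.65 ± 0.579 FPKM (limma, adjusted p = 0.107). The Fringe gene Mfng, whose product extends that fucose, stood at 7.04 ± 3.22 and 8.06 ± 1.67 FPKM.

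Of 9 tested genes for the proteases that cut Notch and their subunits, 3 changed, 2 downward and 1 upward, where 19.5% of all genes tested changed. Furin, which cleaves the receptor precursor as well as many growth factor precursors, fell from 12.5 ± 3.76 to 3.65 ± 1.21 FPKM (limma, log2 fold change -1.64, adjusted p = 0.00276). Psen2, a catalytic subunit of gamma-secretase, fell from 1.98 ± 0.367 to 1.10 ± 0.279 FPKM (limma, adjusted p = 0.0281). Leaving out WT replicate 1, 3 or 5 gave 0.0507, 0.0782 or 0.0682, leaving out Ednrb-/- replicate 5 gave 0.0639, and other processing gave 0.0746 (no filter on low genes) and 0.0860 (quantile normalization). Psenen, a small subunit of the same complex, rose from 42.1 ± 5.88 to 58.3 ± 5.38 FPKM (limma, log2 fold change 0.47, adjusted p = 0.0122). The groups did not overlap for these 3 genes, as for 13.2% of all genes tested. Adam10, the main sheddase of ligand-bound Notch, stood at 70.9 ± 13.0 and 53.5 ± 3.68 FPKM (limma, adjusted p = 0.0556, and 0.00247 without WT replicate 2). Without Ednrb-/- replicate 2 the sheddase gene Adam17 and the gamma-secretase gene Ncstn passed downward (limma, adjusted p = 0.0292 and 0.0297). That library held the highest Ednrb-/- value of both genes, so leaving it out enlarges their falls in any case.

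Of 11 tested genes of endocytosis and turnover, Numb alone passed, and without WT replicate 2 the ubiquitin ligase gene Dtx4 did too (limma, log2 fold change 0.36, adjusted p = 0.0205). Numb, an endocytic adaptor that lowers Notch activity, fell from 9.88 ± 1.41 to 6.67 ± 0.942 FPKM without overlap (limma, log2 fold change -0.53, adjusted p = 0.0121). The next lowest p values were those of the ubiquitin ligase genes Neurl1a, at 1.72 ± 0.182 and 1.13 ± 0.271 FPKM, and Dtx3, at 79.5 ± 7.11 and 95.1 ± 11.6 FPKM (limma, adjusted p = 0.0725 and 0.0977). Neurl1a did not overlap between the genotypes. None of the 6 tested genes of the nuclear complex and none of the 9 corepressor genes passed with all 10 libraries. Without WT replicate 2, Snw1 of the first group (limma, log2 fold change 0.30, adjusted p = 0.0257) and the Groucho-type corepressor gene Tle3 of the second (0.33, adjusted p = 0.00889) passed. The coactivator genes Snw1 and Maml1 had the lowest p values of the first group, at 59.1 ± 5.65 and 70.8 ± 4.89 FPKM for Snw1 and 12.8 ± 2.62 and 9.91 ± 1.68 FPKM for Maml1 (limma, adjusted p = 0.0531 and 0.137). Snw1 also passed without Ednrb-/- replicate 4, its lowest Ednrb-/- library (limma, adjusted p = 0.0373).

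Other targets and the proneural genes did not pass either. Hes6, which acts against Hes1, had 56.6 ± 18.5 and 71.7 ± 16.4 FPKM, Nrarp, a feedback inhibitor, 5.29 ± 2.30 and 6.72 ± 2.49 FPKM, and Heyl, a Hey gene of mural cells, 2.67 ± 1.29 and 1.06 ± 1.64 FPKM in WT and Ednrb-/- (limma, adjusted p = 0.278, 0.424 and 0.0957). For Heyl, Ednrb-/- replicate 1 held 3.96 FPKM and the other Ednrb-/- libraries 0.0534 to 0.631 FPKM. Without replicate 1 Heyl passed, with a log2 fold change of -1.86 (limma, adjusted p = 0.00855). Of 7 proneural genes none rose or fell, 6 had a positive difference, and the median was 0.50. Neurod4 had 9.99 ± 3.50 and 14.5 ± 3.73 FPKM and Neurod1 3.09 ± 1.06 and 4.49 ± 1.14 FPKM (limma, adjusted p = 0.164 and 0.152). Atoh1, the factor of the most dorsal interneurons and the exception, had 1.25 ± 1.02 and 0.280 ± 0.230 FPKM (limma, log2 fold change -1.05, adjusted p = 0.0690, and 0.0352 without WT replicate 3).

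**Figure D5:**
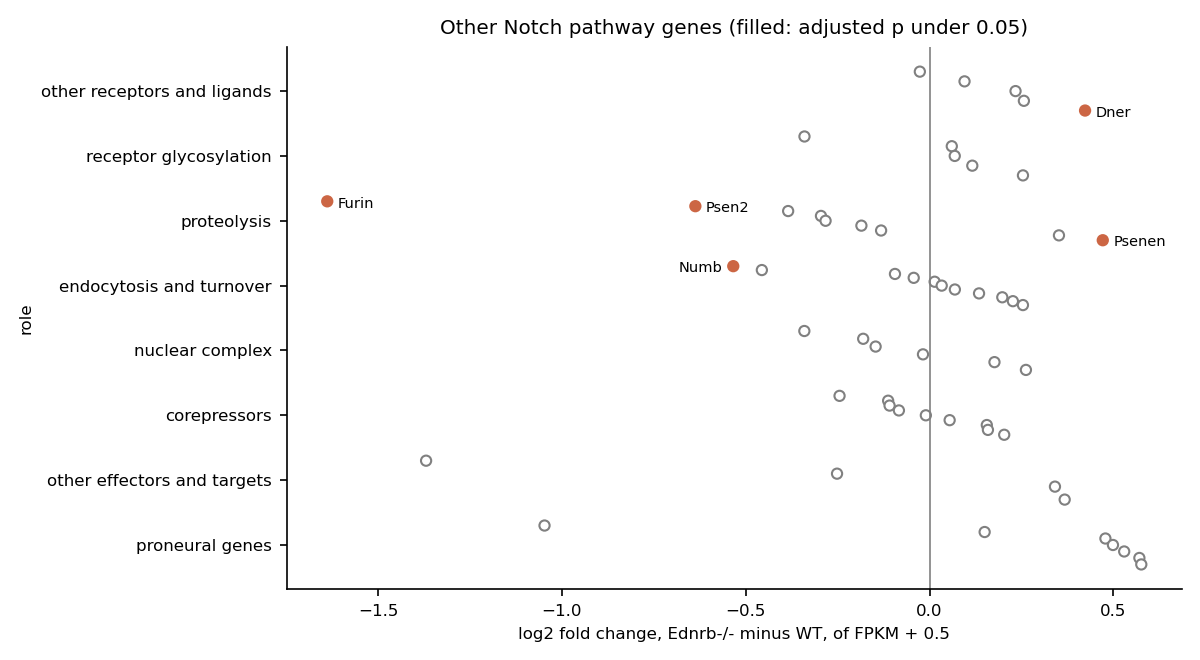
Log2 fold change (horizontal axis, Ednrb-/- minus WT, of FPKM + 0.5, by limma) of the 56 tested pathway genes outside the 10, by role (vertical axis), with filled points for an adjusted p under 0.05. Furin, at -1.64, lies farthest from 0, and the 5 filled points are Dner, Furin, Psen2, Psenen and Numb.

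The genes whose levels followed the 3 changed genes most closely were sought among 7973 protein-coding genes with a mean of at least 5 FPKM, by Pearson r of log2(FPKM + 0.5) over the 10 libraries. These are the highest of many values and share the difference between genotypes, so they describe these libraries only. For Jag1 they were Numb (r = 0.991) and the nuclear factor I gene Nfic (r = 0.987), with r = 0.974 and 0.975 after the genotype means were removed. For Notch2 they were Akap13, an anchoring protein of protein kinase A (r = 0.974, and 0.946 without the genotype means), and the teneurin gene Tenm3 (r = 0.964 and 0.972). Tenm3 did not itself pass the test (limma, adjusted p = 0.0756). For Hey1 they were the neurofilament gene Nefl (r = 0.964 and 0.914) and Vtn, which encodes vitronectin (r = 0.963 and 0.936). Nefl stood at 51.7 ± 11.5 FPKM in WT and 85.8 ± 13.4 FPKM in the Ednrb-/- libraries, and Vtn at 6.58 ± 4.97 and 42.0 ± 33.1 FPKM (SD, n = 5 each).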

How the data were processed

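RNA of 10 explant libraries was sequenced after TRIzol extraction and standard Illumina library preparation, per the labels' protocols. HISAT2 2.0.5, featureCounts 1.5.0-p3, fastp and mm10 were used per the submitters' processing notes, while the table's identifiers belong to the C57BL/6NJ assembly, and coordinates are printed as the table gives them. The values are FPKM as deposited by the authors, 1 column per library, matched by genotype and replicate number in the sample titles. Whether counting used strand is not stated there. Models that overlap a member never reached 1 FPKM, except the microRNA Mir6941 within Jag2.

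FPKM times gene length was a whole multiple of 1 step per library for 100% of values within 0.01 of a read, which gave the reads. These served for depth, per library and per gene, and for limma voom.

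The test was limma 3.58.1 (limma-trend) in R 4.3.3 on log2(FPKM + 0.5), genotype as the only term, over 15156 genes with at least 0.5 FPKM in at least 5 of 10 libraries, with Benjamini-Hochberg adjustment and a threshold of 0.05. It was tested on simulated data, in which every gene had the same dispersion between libraries and no library stood apart. Fold changes understate the change of low genes. Single genes were also tested by exact permutation over 252 assignments. The limma p-values set the difference between genotypes against the spread among these libraries within a genotype.

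The members and lists were chosen with earlier results of these data known. Named are the members, Ednrb, 63 pathway genes (counts by role, up to 3 by lowest p), cell type markers, and the 2 genes most like each changed member. Adam10, Adam17, Ncstn, Dtx4, Tle3, the Hox genes and the promoter windows of receptors and ligands fall outside that rule and were chosen after their values were seen. Alternatives were 2 pseudocounts, 2 filters, TPM rescaling, quantile normalization, array weights, voom, a replicate block and leaving out each library.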

Additional observations from a re-analysis of the deposited data

Results flagged for a closer look

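Hes1 in WT replicate 1 stood at 29.0 FPKM, where the other WT libraries held between 9.74 and 13.0 FPKM. On the log2 scale its gap to the next library was 0.74 of the group's range, above the critical value of 0.71 for 5 samples. Of 20 groups tested (10 genes in each genotype) this was the 1 so marked, and chance marks about 1 group in 20.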

How the results depend on the processing

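Notch2 and Jag1 kept their direction and their call under all 19 alternatives, with log2 fold changes from -0.94 to -0.70 and from -1.11 to -0.84. Hey1 kept its direction and lost its call in 5. With the replicate number as a block, its adjusted p was 0.0508, 1877 genes changed (419 higher), 0 of the 10 Notch genes rose and 1 other pathway gene fell, Numb and Psen2 being at adjusted p = 0.0595 and 0.0689. The numbers pair no libraries by the labels, and same-numbered libraries deviated with correlations from -0.163 to 0.153, 1 of 5 WT libraries correlating best with its own number. With array weights 4 members rose, 5 other pathway genes rose and 8 fell, and 1684 genes were higher. With no filter 659 genes were higher and 1 other pathway gene rose. Under quantile normalization 1603 genes were higher and 1730 lower, against 990 and 1966. Leaving out 1 library gave 1898 to 3240 genes changed, 511 to 1151 higher and 1385 to 2089 lower. It gave 0 to 4 members higher, 1 to 5 other pathway genes higher and 2 to 5 lower, and 2 members lower each time. Differences near 0 turned sign: Notch1 with array weights (0.039), Jag2 under quantile normalization (0.069), array weights (0.038) and voom (0.025), and all 3 of Notch1 (-0.22 to 0.11), Notch3 (-0.25 to 0.036) and Jag2 (-0.062 to 0.063) over the fits without 1 library. The causes were not tested. At 84 reads in its shallowest library, Hes5 carries the most counting noise.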
